A study of Mus musculus with 5 samples.

Results

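The genes described here are the matrix metalloproteinases (Mmp), their tissue inhibitors (Timp), and the membrane-bound and secreted relatives named Adam, Adamts and Adamtsl, measured in single cells of the mouse mammary gland. Members were taken by symbol, as each gene of the count tables whose symbol starts with one of the 5 family names and a number. Of 27998 genes listed, 84 matched and 70 of these had at least 1 unique molecular identifier (UMI, which stands for a captured transcript). The 60 members with at least 20 UMIs over the 5 libraries are reported, out of 15946 genes with that many. They comprised 4 of 4 Timp, 17 of 23 Mmp, 15 of 33 Adam, 19 of 19 Adamts and 5 of 5 Adamtsl genes.

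The study used ovariectomized BALB/cj mice as a model of hormone replacement after menopause, with 1 library for each of 5 groups. Treatment began 20 weeks after ovariectomy and lasted 1 week, and the labels give an age of 30 weeks for all groups. OVX received vehicle, OVX_E2 received 17β-estradiol (E2) at 1 µg per animal each day by intraperitoneal injection, and OVX_E2_P4 received E2 with 0.1 mg of progesterone (P4) per animal. OVX_E2_PBDE and OVX_E2_P4_PBDE had the same hormones and food with a mixture of polybrominated diphenyl ethers (PBDEs, flame retardants), which per kg held 7.1 mg of BDE-47, 0.4 mg of BDE-100 and 0.9 mg of BDE-153, while the other groups had matched food without them. All groups thus lacked ovaries, and none held mice with ovaries. The number 4 glands, without the lymph node, were digested with collagenase and DNAse, and about 4000 cells were loaded without a sort. The number of mice behind a library is not given in the sources used here.

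Mmp enzymes use zinc to cut collagens and other matrix proteins, Timp proteins block them and several of their relatives, and the balance of both is known to shape duct growth and the regression of the gland after lactation. Adam proteins sit in the membrane and release the outer parts of growth factors and receptors, among them amphiregulin, the estrogen-induced ligand of mammary ducts. Adamts enzymes are secreted and cut proteoglycans such as versican or trim the ends of procollagens, whereas Adamtsl proteins lack the protease domain and bind the matrix, fibrillin fibres in particular.

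The deposited matrices held 2233 to 3536 barcodes and 19982067 to 42012988 UMIs per library, with a median of 5345 to 8698 UMIs per barcode, and 14317 of 14344 barcodes passed the filters. Pairs of libraries shared 3 to 15 barcodes, at most 0.483% of the smaller library. Clusters were named from markers as fibroblast-like (887 to 2565 cells per library), hormone-sensing luminal L-Hor-like (92 to 755), alveolar luminal L-Alv-like (143 to 579, and 0 in OVX), basal-like (60 to 148), myeloid-like (34 to 74), lymphoid-like (12 to 37) and endothelial-like (26 to 71). OVX was clustered at a resolution of 0.3 and the others at 0.5, and OVX did hold an L-Alv-like cluster of 32 cells at a resolution of 1.0 and of 30 cells with 5% mitochondrial UMIs. Barcodes that held both luminal programs (195 to 527 per library) were kept apart. The endothelial-like cells also held pericyte markers at a summed 691 to 1079 CPM (UMIs of a gene per 1000000 UMIs of the compartment) beside endothelial markers at 2596 to 3180, so the members of both cell types cannot be told apart there. Adipocyte markers summed to at most 1.61 CPM in any compartment. The file identifiers of both PBDE libraries lie apart from those of the other 3. Whether they were prepared apart is not given in the sources used here, and such a difference and PBDEs cannot be told apart.

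Levels are in CPM. Since the counts come from transcript 3′ ends, they are compared between cells and not ranked between genes. Intervals are 95% and cover counting error only. Fibroblast transcripts also appeared in other cells. The median of 6 fibroblast markers in L-Hor-like cells was 9.80% of the fibroblast-like level in OVX and 2.99% to 4.86% in the other libraries, and in basal-like cells it was 10.1% in OVX and 3.25% to 4.16% in the others. Low levels of fibroblast members outside fibroblasts are read against these shares.

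Fibroblast-like cells had the highest level of more members than any other compartment. The highest pooled level lay in fibroblast-like cells for 29 of the 60 members, in endothelial-like cells for 16, in myeloid-like cells for 7, in basal-like cells for 3, in L-Hor-like cells for 2, in lymphoid-like cells for 2 and in L-Alv-like cells for 1. For 22 of the 29 fibroblast members this held in each of the 5 libraries, whereas 6 of the 16 endothelial members had only 1 to 8 UMIs in endothelial-like cells. Of the 27 members with at least 1000 UMIs, 19 were highest in fibroblast-like and 6 in endothelial-like cells. The same shares over all genes were not computed, so these counts describe the members and are not set against a background. Counts of cells were summed per library and compartment, and each compartment was compared with the mean of the others by edgeR's quasi-likelihood test with the library as a block. A call required an adjusted p below 0.05 (Benjamini-Hochberg) and a change of at least 2-fold. Of 11219 genes with enough counts, 39 were members, and the other 21 members, with at most 304 UMIs each, were too low to be tested. The filter asks for a level in only a few sums, so a scarce member could enter through the compartment where it was high. Mmp13, with 37 UMIs, and Timp4, with 105, entered in this way, and their calls there are not independent of the filter. The same can hold for any member that was low in the other compartments, among them Adamts18, Mmp12, Mmp27, Adam8, Adamts7 and Adamts8. Calls of such members where they were high are not read as independent of the filter either. Only sums of at least 20 cells entered the fit, so lymphoid-like cells entered it from OVX and OVX_E2_P4 alone.

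In fibroblast-like cells 30 members were higher, where 19.1% of all genes were, and 3 were lower (9.76% of all genes). In endothelial-like cells 12 were higher (17.6%) and 6 lower (9.40%). There were 9 higher (13.5%) and 6 lower (11.0%) in myeloid-like cells, 6 higher (13.3%) and 2 lower (6.0%) in basal-like cells, and for L-Hor-like cells 4 higher (14.8%) and 9 lower (12.0%). Among L-Alv-like cells 1 was higher (12.4%) and 8 lower (8.69%), and in lymphoid-like cells 1 was higher (8.40%) and 7 lower (6.62%). The split depended on scaling. Without TMM factors it was 15 higher (27.2% of all genes) and 0 lower (3.77%) in endothelial-like cells. In myeloid-like cells it was then 8 (11.5%) and 9 (16.2%). With DESeq2 it was 12 (19.1%) and 3 (8.69%) in endothelial-like and 3 (12.4%) and 18 (19.6%) in L-Hor-like cells. It was 1 (10.9%) and 15 (13.0%) in L-Alv-like and 6 (12.7%) and 4 (6.94%) in basal-like cells with DESeq2. The shares of all genes thus moved as well.

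**Figure D1:**
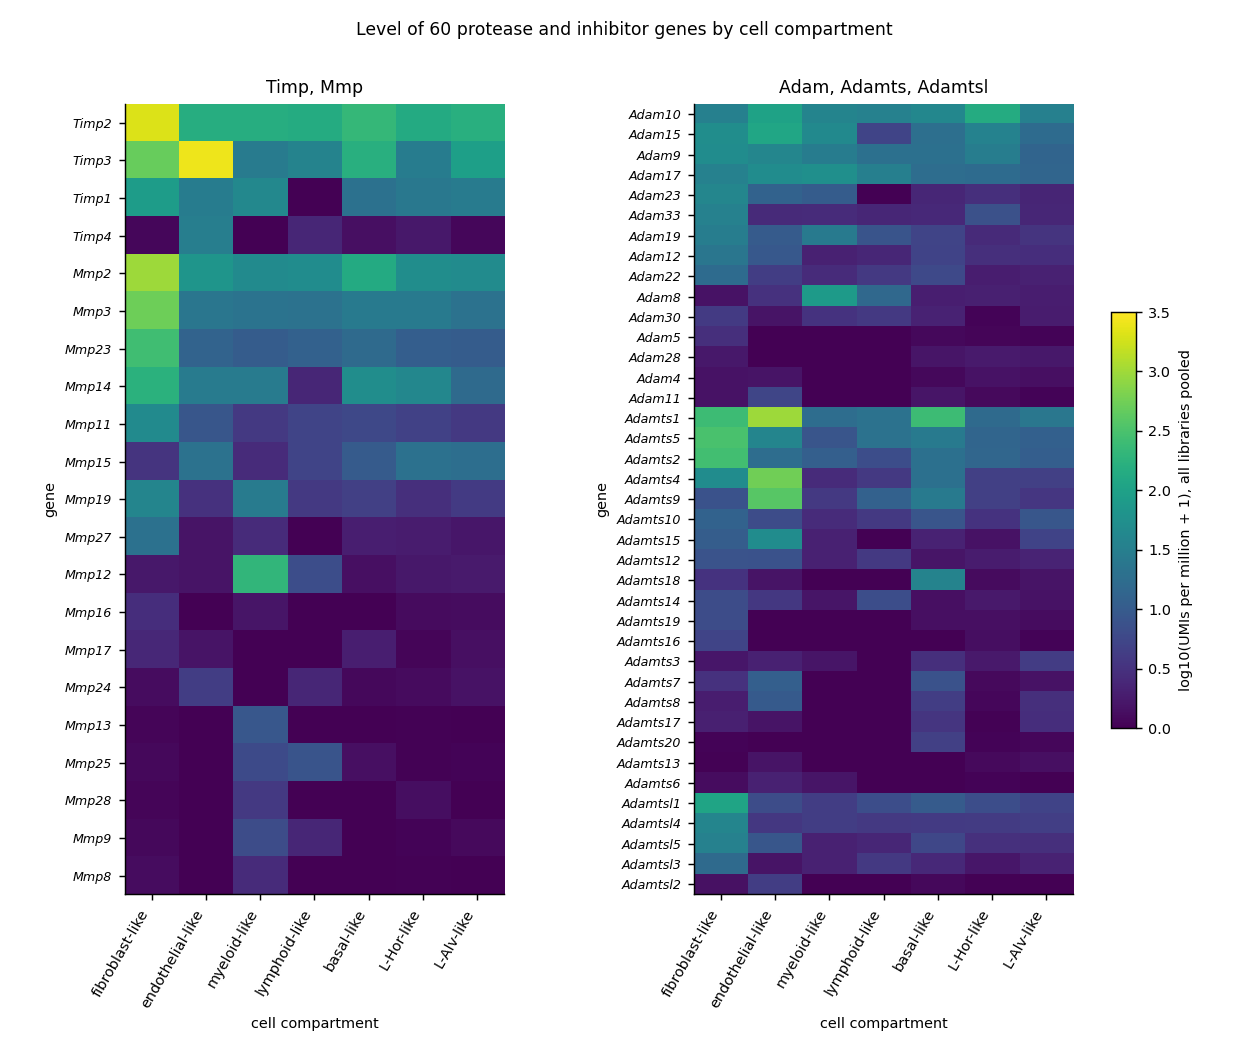
Pooled levels of the 60 members (rows, by family) in 7 compartments (columns), all libraries together, coloured by log10 of CPM plus 1. The fibroblast-like column is the fullest, endothelial-like cells carry Timp3 and a block of Adamts genes, and Mmp12 and Adam8 are highest in myeloid-like cells.

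Among the Timp inhibitors, Timp2 and Timp1 were highest in fibroblast-like cells, and Timp3 and Timp4 in endothelial-like cells. Timp2, which also helps Mmp14 to activate pro-Mmp2, was a fibroblast transcript, with 2152 CPM in OVX, 2024 in OVX_E2, 1754 in OVX_E2_P4, 2096 in OVX_E2_PBDE and 2535 in OVX_E2_P4_PBDE. In basal-like cells it stood at 173 to 353 and in endothelial-like cells at 103 to 241, so no library of either reached the lowest fibroblast value. The fitted log2 difference of fibroblast-like cells from the others was 3.87 (SE 0.0862, adjusted p = 6.64e-29, edgeR). Timp3, which stays bound to the matrix, was an endothelial-like transcript, with 2468 CPM in OVX, 2516 in OVX_E2, 2057 in OVX_E2_P4, 2757 in OVX_E2_PBDE and 2556 in OVX_E2_P4_PBDE. Fibroblast-like cells came next at 428 to 521 and basal-like cells at 124 to 202, without overlap between the 3 compartments. The log2 difference for Timp3 was 4.53 in endothelial-like cells (SE 0.106, adjusted p = 1.29e-28) and 2.37 in fibroblast-like cells (SE 0.109, adjusted p = 3.17e-20).

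Timp1, the secreted inhibitor that many stimuli induce, had its lowest fibroblast level in OVX, at 55.4 CPM, and stood there at 111 in OVX_E2, 120 in OVX_E2_P4, 89.0 in OVX_E2_PBDE and 92.3 in OVX_E2_P4_PBDE. The fibroblast difference was 3.41 on the log2 scale (SE 0.221, adjusted p = 1.22e-15). Myeloid-like cells held 15.0 in OVX and 38.7 to 68.2 elsewhere, and their call (log2 difference 2.19, SE 0.498, adjusted p = 0.000601) was lost when the barcodes with the highest Scrublet doublet scores were left out. No UMI of Timp1 was found in lymphoid-like cells, which allows up to 4.24 CPM over all libraries. Timp4 was the scarcest of the 4, with 105 UMIs in all, of which 55 lay in endothelial-like cells: 17 in OVX, 9 in OVX_E2, 0 in OVX_E2_P4, 22 in OVX_E2_PBDE and 7 in OVX_E2_P4_PBDE. The 0 in OVX_E2_P4 allows up to 17.7 CPM, close to the 19.3 of OVX_E2. Its log2 difference was 5.97 (SE 0.559, adjusted p = 1.2e-10). Timp1, Timp3 and Timp4 lie inside the genes Syn1, Syn3 and Syn2 on the opposite strand.

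**Figure D2:**
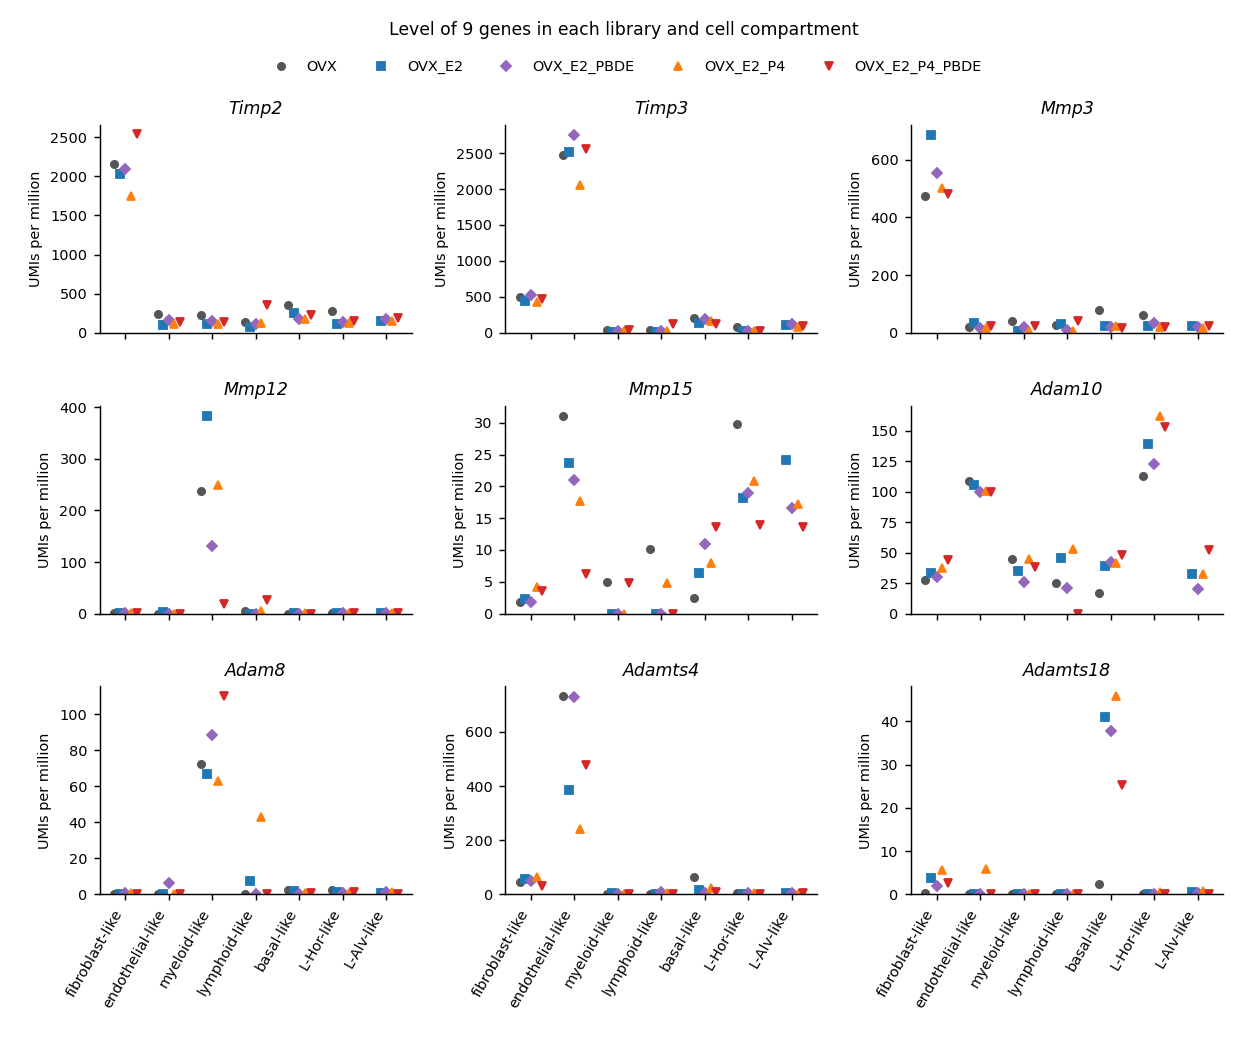
Levels of 9 members in each compartment, in CPM, with each point a library. The points of Timp2 and Mmp3 are highest in fibroblast-like cells, those of Timp3 and Adamts4 in endothelial-like cells and those of Adam8 in myeloid-like cells. Mmp12 is highest in myeloid-like cells in 4 of the 5 libraries. The points of Adamts18 are highest in basal-like cells, where the OVX library stands at 2.47.

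Among the Mmp genes, the fibroblast enzymes Mmp2, Mmp3, Mmp23, Mmp14 and Mmp11 had the most UMIs. Mmp2, the gelatinase that Mmp14 and Timp2 activate on the cell surface, had 925 CPM in OVX fibroblasts, 998 in OVX_E2, 1089 in OVX_E2_P4, 967 in OVX_E2_PBDE and 846 in OVX_E2_P4_PBDE, and 105 to 217 in basal-like cells. Mmp3, stromelysin 1, had 475, 687, 501, 555 and 482 in the same order, and 16.8 to 78.9 in basal-like cells. For both, each fibroblast library lay above each basal-like library. Mmp23, a membrane-anchored enzyme without a hemopexin domain, had 235 to 304 in fibroblast-like cells and 15.4 pooled over basal-like cells. The log2 differences of fibroblast-like cells from the others were 4.89 for Mmp23 (SE 0.107, adjusted p = 5.54e-29), 4.77 for Mmp3 (SE 0.135, adjusted p = 1.74e-26) and 4.11 for Mmp2 (SE 0.109, adjusted p = 3.61e-27). Mmp27 had the largest fitted difference of all members there, 5.16 (SE 0.287, adjusted p = 1.72e-17), from 14.8 to 26.2 CPM.

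Mmp14, the membrane collagenase, was shared between the stroma and the epithelium. Fibroblast-like cells held 151 CPM in OVX, 211 in OVX_E2, 197 in OVX_E2_P4, 168 in OVX_E2_PBDE and 131 in OVX_E2_P4_PBDE, against 29.5 to 81.4 in basal-like and 32.6 to 54.3 in L-Hor-like cells. The L-Hor-like level of Mmp14 was 36.0% of the fibroblast level in OVX and 19.0% to 26.0% in the other libraries, above the marker shares of 9.80% and at most 4.86%. Mmp14 was called in fibroblast-like cells (log2 difference 4.16, adjusted p = 2.13e-20), in basal-like cells (2.01, adjusted p = 0.000113) and in L-Hor-like cells (1.76, adjusted p = 0.000466). The L-Hor-like call was lost with DESeq2 and without the barcodes of highest Scrublet score.

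Mmp15, a second membrane-type enzyme, had the reverse pattern between L-Hor-like and fibroblast-like cells. Pooled over libraries, Mmp15 was highest in endothelial-like cells, at 20.2 CPM from 37 UMIs, with L-Hor-like cells next at 19.0. It stood at 29.8 CPM in L-Hor-like cells of OVX, 18.2 in OVX_E2, 20.8 in OVX_E2_P4, 18.9 in OVX_E2_PBDE and 13.9 in OVX_E2_P4_PBDE, and at 1.76 to 4.10 in fibroblast-like cells, so the 2 compartments did not overlap. It was higher in L-Hor-like (log2 difference 1.62, SE 0.223, adjusted p = 1.25e-07) and L-Alv-like cells (1.55, SE 0.254, adjusted p = 4.56e-06), where it was the only member called higher, and lower in fibroblast-like cells (-1.83, SE 0.39, adjusted p = 0.000128). Its endothelial-like call (1.11, SE 0.378, adjusted p = 0.0172) rested on 2 to 13 UMIs per library. It was lost without OVX_E2, without OVX_E2_PBDE, without OVX_E2_P4, without the highest Scrublet scores or with 5% mitochondrial UMIs. Mmp11, stromelysin 3, was again a fibroblast gene (3.81, SE 0.19, adjusted p = 3.23e-19) with 35.2 CPM in OVX, 62.0 in OVX_E2, 72.3 in OVX_E2_P4, 45.9 in OVX_E2_PBDE and 22.2 in OVX_E2_P4_PBDE, and its 2 lowest libraries were OVX and OVX_E2_P4_PBDE.

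Mmp12, macrophage elastase, was almost absent from fibroblasts (0.25 to 1.02 CPM) and stood in myeloid-like cells at 237 CPM in OVX, 384 in OVX_E2, 249 in OVX_E2_P4, 131 in OVX_E2_PBDE and 19.1 in OVX_E2_P4_PBDE. These levels came from 95, 98, 95, 71 and 4 UMIs. The log2 difference of myeloid-like cells was 8.04 (SE 0.235, adjusted p = 6.42e-26). In the next compartment, lymphoid-like cells, Mmp12 stood at 5.65 CPM pooled, so this call is not independent of the filter on low counts. Within the myeloid-like cells, 360 of its UMIs fell in 1 of 4 subclusters, the 74 cells led by C1qa, C1qb and C1qc, complement genes that mark resident macrophages, at 848 CPM (762 to 940). The subcluster of 81 cells led by Retnla and Lyz1 held 3 UMIs of Mmp12, and those led by Cd209a and by Clec9a held 0. OVX_E2_P4_PBDE had 3 cells of the C1qa subcluster and the other libraries 11 to 26, so in whole myeloid-like cells fewer such cells and less Mmp12 per cell cannot be told apart. Within these 3 cells Mmp12 stood at 289 (78.9 to 741), and in the other libraries at 600 to 1217.

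Mmp13, a collagenase with 37 UMIs in all, was also highest in myeloid-like cells (log2 difference 7.19, SE 0.98), all 14 of its myeloid UMIs lying in the C1qa subcluster. Fibroblast-like cells came next at 0.113 CPM, so Mmp13 passed the filter through myeloid-like cells alone. Its call there is thus no separate support. In myeloid-like cells Mmp13 stood at 4.99 CPM in OVX, 27.4 in OVX_E2 and 13.1 in OVX_E2_P4. It had 0 UMIs there in both PBDE libraries, which allows up to 5.52 in OVX_E2_PBDE and 14.3 in OVX_E2_P4_PBDE. The call was lost with DESeq2. Mmp14 was likewise higher in the C1qa subcluster, at 87.1 (61.4 to 120), than in the other 3 (2.74 to 11.3). Timp1 and Mmp19 were instead higher in the Retnla subcluster, Timp1 at 113 (87.0 to 145) against 0 to 20.3, and Mmp19 at 62.9 (43.8 to 87.5) against at most 22.6. These levels within subclusters are descriptions without a test. Mmp9, the gelatinase of neutrophils and activated macrophages, had 29 UMIs in the whole series, and Mmp8, Mmp25 and Mmp28 had 21, 37 and 35.

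Mmp13, Mmp12, Mmp3 and Mmp27 lie in this order in a cluster of 10 Mmp genes that spans 427072 bases of chromosome 9 (mm10, GENCODE M21), in which Mmp1b, Mmp20 and Mmp7 had 0 UMIs, Mmp1a 2, Mmp10 12 and Mmp8 21. The 4 genes start at 7272514, 7344381, 7445822 and 7571396 on the plus strand. The first and second, highest in myeloid-like cells, had 37 and 485 UMIs in all, and the others, highest in fibroblast-like cells, had 26255 and 925. Mmp1b lies between Mmp12 and Mmp3, and Mmp1a, Mmp10 and Mmp8 lie between Mmp3 and Mmp27. The 100 bases before the start site are shown for these 4 genes, since they differ in compartment within 1 locus. They are RefSeq sequences of GRCm38.p6, plus strand, with matches to the AP-1 motif TGANTCA and the TATA motif TATAAA in capitals. For Mmp12 the second of its RefSeq start sites is shown, and the window of the first held no AP-1 match.
Mmp13, chr9:7272414-7272513: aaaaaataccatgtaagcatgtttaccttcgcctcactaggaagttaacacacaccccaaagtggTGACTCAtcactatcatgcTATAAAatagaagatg
Mmp12, chr9:7347274-7347373: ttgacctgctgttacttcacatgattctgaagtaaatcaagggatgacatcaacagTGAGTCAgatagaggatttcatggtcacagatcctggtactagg
Mmp3, chr9:7445722-7445821: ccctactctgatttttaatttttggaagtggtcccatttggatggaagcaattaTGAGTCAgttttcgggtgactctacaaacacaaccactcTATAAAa
Mmp27, chr9:7571296-7571395: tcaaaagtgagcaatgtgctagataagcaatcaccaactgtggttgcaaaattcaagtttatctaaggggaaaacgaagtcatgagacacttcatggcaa

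The AP-1 motif began 35 bases before the start site in Mmp13, 44 before the second site of Mmp12 and 46 in Mmp3, and was not found in this stretch of Mmp27. Windows ran from 250 bases before to 50 after a start site and were searched on both strands. TGANTCA was in 4 of 41 windows of the 37 members with a window in the RefSeq set used (9.76%), the fourth being Adam19. It was in 2565 of 32851 windows of all genes (7.81%). Windows on chromosome 18, where Adamts19 lies, were left out for members but not for all genes. TATAAA was in 14.6% of the members' windows and 13.6% of all. The estrogen response element, GGTCA and TGACC with 3 bases between them, was in 0 of 41 and in 0.0700% of all, and TGTTCT, the core of progesterone and glucocorticoid receptor sites, in 9.76% and 19.0%. A match is a run of letters and not a bound site, and for Mmp12 the AP-1 letters were found at 1 of its 2 start sites.

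The 15 Adam genes together stood at 290 to 409 CPM in endothelial-like, 291 to 342 in fibroblast-like, 235 to 344 in myeloid-like and 215 to 255 in L-Hor-like cells, and at 72.4 to 123 in L-Alv-like and basal-like cells. Adam10, the sheddase of Notch receptors and several ErbB ligands, was highest in L-Hor-like cells in each library, with 113 CPM in OVX, 139 in OVX_E2, 162 in OVX_E2_P4, 123 in OVX_E2_PBDE and 153 in OVX_E2_P4_PBDE. Endothelial-like cells followed at 99.6 to 109, just below the lowest L-Hor-like library, and fibroblast-like cells held 27.8 to 43.9. The log2 difference of L-Hor-like cells was 1.78 (SE 0.106, adjusted p = 1.97e-16). Adam17, which sheds amphiregulin, was less bound to a compartment, with 32.1 to 34.7 in fibroblast-like, 42.9 to 64.8 in endothelial-like and 28.7 to 77.4 in myeloid-like cells. The myeloid range overlapped both others, and Adam17 was called higher in myeloid-like cells (1.36, SE 0.182, adjusted p = 1.28e-07).

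Adam15 and Adam9, adhesion-type Adam proteins that bind integrins, were found in most compartments. Adam15 had 70.8 to 172 CPM in endothelial-like cells and 41.2 to 58.1 in fibroblast-like cells, without overlap, and was called higher in both (log2 difference 1.97, adjusted p = 3.36e-10, and 1.26, adjusted p = 8.44e-08). Its call in myeloid-like cells (1.18, adjusted p = 0.00063) was lost without OVX, without TMM factors or without the highest Scrublet scores. Adam9 had 40.9 to 56.9 in fibroblast-like and 27.9 to 58.4 in endothelial-like cells, which overlapped, and was called in fibroblast-like cells (1.19, SE 0.131, adjusted p = 7.91e-10).

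Adam23, which lacks protease activity, stood at 36.2 to 52.1 CPM in fibroblast-like cells and at most 17.7 in endothelial-like cells (fibroblast log2 difference 4.71, SE 0.202, adjusted p = 8.97e-21). Its endothelial-like call (1.91, SE 0.65, adjusted p = 0.017) was lost without OVX_E2_PBDE or with 5% mitochondrial UMIs. Its myeloid-like call was lost without OVX or without the highest Scrublet scores. Adam33 had 42.5 in OVX fibroblasts, 37.2 in OVX_E2, 36.9 in OVX_E2_P4, 24.4 in OVX_E2_PBDE and 20.7 in OVX_E2_P4_PBDE (3.98, SE 0.216, adjusted p = 4.17e-18). Both PBDE libraries were lowest. Adam33 was also called in L-Hor-like cells (1.46, SE 0.329, adjusted p = 0.000276), where it stood at 42.6% of the fibroblast level in OVX and 15.9% to 23.0% elsewhere.

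Adam8, an Adam protein of leukocytes, was a myeloid gene with 72.4 CPM in OVX, 66.6 in OVX_E2, 63.0 in OVX_E2_P4, 88.4 in OVX_E2_PBDE and 110 in OVX_E2_P4_PBDE (log2 difference 5.77, SE 0.322, adjusted p = 2.42e-17). In contrast to Mmp12, it was lowest in the C1qa subcluster (4.71) and stood at 131 (103 to 165) in the Retnla subcluster, 81.3 in the Cd209a and 82.2 in the Clec9a subcluster. Its lymphoid-like call (3.38, SE 0.873, adjusted p = 0.00468), the only member called higher there, came from 9 of 10 UMIs in OVX_E2_P4, and without that library, which leaves OVX alone for these cells, the log2 difference was -5.17.

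Of the Adamts genes with the most UMIs, Adamts1, Adamts4 and Adamts9 were highest in endothelial-like cells. Adamts1, which cuts versican and is induced by progesterone in the ovary, had 860 CPM in endothelial-like cells of OVX, 884 in OVX_E2, 589 in OVX_E2_P4, 1242 in OVX_E2_PBDE and 825 in OVX_E2_P4_PBDE. In basal-like cells it had 737, 327, 204, 142 and 186 in the same order, so OVX alone lay within the endothelial range, and in fibroblast-like cells 195 to 289. It was called in all 3 (endothelial log2 difference 3.77, adjusted p = 1.55e-19, basal 2.27, adjusted p = 1.62e-12, fibroblast 2.21, adjusted p = 1.67e-13).

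Adamts4, an aggrecanase, stood at 732 CPM in endothelial-like cells of OVX, 384 in OVX_E2, 242 in OVX_E2_P4, 730 in OVX_E2_PBDE and 476 in OVX_E2_P4_PBDE, and at 31.9 to 63.0 in fibroblast-like cells. Adamts9, which also cuts proteoglycans, had 253, 298, 336, 508 and 430 in endothelial-like cells and at most 35.8 in basal-like cells. Neither overlapped with the next compartment. The endothelial log2 differences were 5.90 for Adamts4 (SE 0.227, adjusted p = 3.71e-22) and 5.35 for Adamts9 (SE 0.141, adjusted p = 4.25e-27). Adamts15 followed with 5.18 (SE 0.376, adjusted p = 6.05e-14) from 31.1 to 68.7 CPM.

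Adamts2, which removes the amino end of fibrillar procollagens, and Adamts5, the main aggrecanase of cartilage, were fibroblast genes. Adamts2 had 239 CPM in OVX, 349 in OVX_E2, 296 in OVX_E2_P4, 270 in OVX_E2_PBDE and 229 in OVX_E2_P4_PBDE (log2 difference 4.61, SE 0.122, adjusted p = 3.02e-27). Adamts5 had 308, 349, 278, 322 and 298 (4.34, SE 0.119, adjusted p = 8.02e-27), against 28.0 to 50.6 in endothelial-like cells. Adamts10, which acts on fibrillin matrix, was nearer to even, with 8.73 to 16.4 in fibroblast-like cells (1.58, SE 0.225, adjusted p = 2.05e-07).

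Adamts18 was the most basal member. It had 1 UMI in the 60 basal-like cells of OVX and 39 in OVX_E2, 69 in OVX_E2_P4, 52 in OVX_E2_PBDE and 24 in OVX_E2_P4_PBDE, or 2.47, 41.1, 45.8, 37.8 and 25.3 CPM. OVX stood apart from the 4 libraries with E2. The log2 difference of basal-like cells was 6.84 (SE 0.354, adjusted p = 2.95e-16). In the next compartment, fibroblast-like cells, Adamts18 stood at 2.26 CPM pooled, so this call is not independent of the filter on low counts. In fibroblast-like cells Adamts18 stood at 0.437 in OVX and 1.90 to 5.53 elsewhere, OVX again lowest. Adamts7 (log2 difference 3.79, SE 0.727, adjusted p = 9.24e-05) and Adamts8 (2.89, SE 0.966, adjusted p = 0.0175) were called in basal-like cells from 34 and 17 UMIs, and in endothelial-like cells as well (4.56, adjusted p = 2.46e-05, and 4.43, adjusted p = 0.000159) from 19 and 16. The basal call of Adamts8 was lost without OVX_E2, without OVX_E2_PBDE, without OVX_E2_P4 or without the highest Scrublet scores. Adamts20, too low to be tested, had 19 of its 33 UMIs in basal-like cells and was highest there in each library.

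The 4 Adamtsl genes that could be tested were called higher in fibroblast-like cells. In their next compartments they stood at 2.83 to 9.26 CPM pooled. They could thus enter through fibroblast-like cells, and these calls are not read as independent of the filter on low counts. Adamtsl1 had 113 CPM in OVX, 131 in OVX_E2, 100 in OVX_E2_P4, 106 in OVX_E2_PBDE and 100 in OVX_E2_P4_PBDE (log2 difference 4.40, adjusted p = 5.26e-24). Adamtsl4, a fibrillin-binding protein, had 60.6 in OVX, 26.9 in OVX_E2, 29.1 in OVX_E2_P4, 30.5 in OVX_E2_PBDE and 24.9 in OVX_E2_P4_PBDE (4.55, adjusted p = 3.53e-18), with OVX above the 4 others. Adamtsl5 (29.3 to 36.0) and Adamtsl3 (12.1 to 20.2) varied less between libraries (3.67, adjusted p = 6.27e-19, and 3.56, adjusted p = 3.34e-15). Adamtsl2 had 31 UMIs, 20 of them in fibroblast-like and 6 in endothelial-like cells.

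Between treatments, each group was 1 library, so differences were not tested against the variation between animals. Members with at least 50 UMIs over both libraries were set side by side, and those past 2-fold with an interval that excluded 1 were counted. In fibroblast-like cells E2 was accompanied by higher levels of a set of matrix enzymes and of Timp1. Of 35 members, 5 were past 2-fold upward in OVX_E2 over OVX (2.49% of all genes) and 1 downward (1.56%), and the median member had a log2 ratio of 0.26 against 0.04 over all genes. Adamts19 went from 2.69 to 8.43 CPM (ratio 3.13, 2.03 to 4.87), Adam12 from 12.0 to 30.2 (2.52, 2.04 to 3.11) and Adamts9 from 3.42 to 8.43 (2.46, 1.64 to 3.71). Mmp19 went from 24.7 to 51.6 (2.09) and Timp1 from 55.4 to 111 (2.01, 1.81 to 2.23), so Timp1 lay at the limit. Adamtsl4 went from 60.6 to 26.9 (0.444, 0.376 to 0.523). For the 5 members past 2-fold upward the other E2 libraries also lay above OVX, and for Adamtsl4 they also lay below it. These comparisons reuse the OVX library by which the members were selected, so they are not independent of that selection.

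Below 2-fold, Mmp11 was 1.76 times its OVX level (1.54 to 2.01), Mmp3 1.45 times, Adamts2 1.46 times and Mmp14 1.40 times, whereas Mmp2 (1.08, 1.05 to 1.11), Timp2 (0.94, 0.92 to 0.96) and Timp3 (0.90, 0.86 to 0.94) were nearer to it. Epithelial markers in fibroblast-like cells summed to 154 CPM in OVX and 415 in OVX_E2, and their part in these ratios was not tested.

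**Figure D3:**
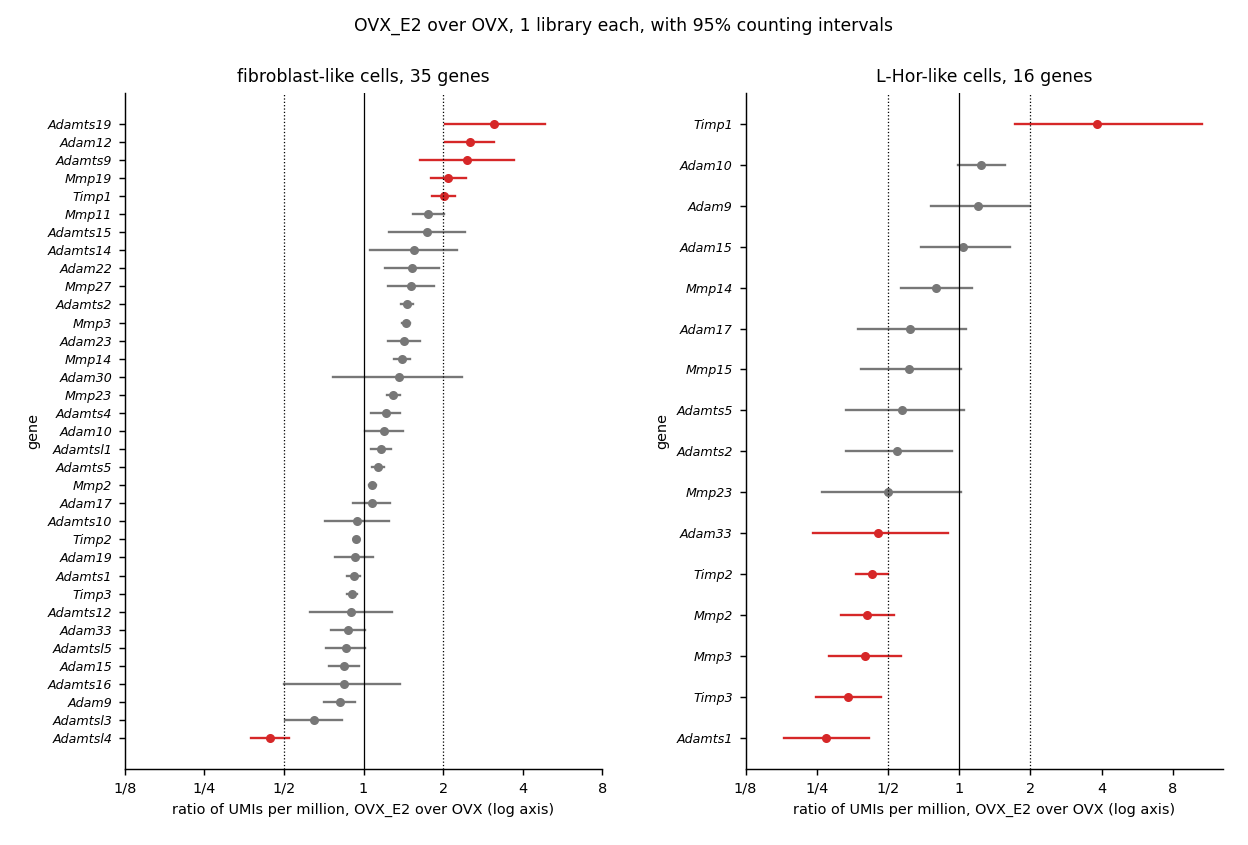
Ratio of OVX_E2 to OVX (log axis) for the members with at least 50 UMIs over both libraries, 35 in fibroblast-like and 16 in L-Hor-like cells, with exact 95% intervals for counting error and members past 2-fold in red. In fibroblast-like cells Adamts19, Adam12, Adamts9, Mmp19 and Timp1 lie on the right and Adamtsl4 on the left, and in L-Hor-like cells Timp1 is on the right and 6 members are on the left.

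Adding P4 to E2 moved no fibroblast member past 2-fold, with 0 of 36 in either direction (1.19% up and 0.457% down over all genes). The ratios of OVX_E2_P4 to OVX_E2 ran from 0.57 for Mmp27 (0.43 to 0.74) to 1.63 for Adamts15 (1.18 to 2.25). Under E2 alone PBDEs went with 0 of 36 as well (0.297% up and 1.10% down), from 0.51 for Adamts18 (0.28 to 0.91) to 1.37 for Adamts16, and the median member was at -0.28 where all genes were at -0.17. Under E2 with P4, PBDEs went with 0 of 33 members up (0.529%) and 2 down (2.16%). Mmp11 was 72.3 CPM in OVX_E2_P4 and 22.2 in OVX_E2_P4_PBDE (0.307, 0.241 to 0.387), and Adamts19 was 8.92 and 4.24 (0.475, 0.257 to 0.838). Adamts19 was no longer past 2-fold with TMM factors, over all barcodes, without the highest Scrublet scores or in Pi16-low cells alone. Adamts4 was at 0.51 (0.41 to 0.62), and Timp2 at 1.45 (1.41 to 1.49). Comparisons with a library in common are not independent. Scaling by TMM factors in place of totals would raise the log2 ratios by 0.17 for PBDEs under E2, 0.09 under E2 with P4 and 0.25 for E2 in L-Hor-like cells, about the size of the shift of all genes.

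In L-Hor-like cells, of 16 members, 1 was past 2-fold upward in OVX_E2 over OVX (1.71% of all genes) and 6 downward (6.60%). Those lower were Adamts1 (50.5 to 13.8 CPM, ratio 0.274), Timp3 (78.9 to 26.8, 0.340), Mmp3 (60.8 to 24.2, 0.398), Mmp2 (111 to 45.4, 0.408), Timp2 (277 to 118, 0.427) and Adam33 (18.1 to 8.20, 0.453). Of these 6, Mmp2, Mmp3, Timp2 and Adam33 were highest in fibroblast-like cells, and Adamts1 and Timp3 in endothelial-like cells. Adam33 was no longer past 2-fold with TMM factors, without the highest Scrublet scores or with thinned cells, Timp2 with TMM factors, and Mmp3 without the highest Scrublet scores or over all barcodes. The median share of fibroblast markers in L-Hor-like cells went from 9.80% to 4.05%, with 92 cells in OVX and 475 in OVX_E2. The part of this share in the 6 ratios was not tested. Timp1 went the other way, from 6 UMIs or 7.76 CPM in OVX to 149 UMIs or 29.8 in OVX_E2 (3.84, 1.72 to 10.6), and stood at 23.1 to 25.1 in the other libraries. Adam10, which was higher in L-Hor-like cells than in any other compartment, was at 1.23 (0.987 to 1.56) and Mmp14 at 0.795 (0.569 to 1.13).

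The other 3 comparisons had no member past 2-fold in L-Hor-like cells, of 17 for P4 (0.906% up and 0.690% down over all genes), 18 for PBDEs under E2 (0.471% and 1.28%) and 17 for PBDEs under E2 with P4 (0.630% and 2.45%). In L-Alv-like cells, of which OVX had 0 in these clusters, no member was past 2-fold, of 16 for P4 (0.917% up and 0.929% down), 15 for PBDEs under E2 (0.497% and 1.04%) and 16 for PBDEs under E2 with P4 (2.99% and 2.14%).

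In the small compartments few members had enough UMIs, and the values are given as descriptions. In basal-like cells 2 of 7 members were past 2-fold downward in OVX_E2 over OVX (8.12% of all genes) and 0 upward (6.16%). P4 went with 0 of 13 in either direction (0.992% up and 1.85% down), PBDEs under E2 with 1 of 10 downward (3.30%) and 0 upward (2.87%), and PBDEs under E2 with P4 with 0 of 10 (2.84% up and 4.09% down). With E2, Mmp3 was at 0.307 (0.172 to 0.542), from 78.9 to 24.2 CPM. Mmp3 is highest in fibroblast-like cells, and the median share of fibroblast markers in basal-like cells went from 10.1% to 4.16%. The part of this share in the Mmp3 ratio was not tested. Adamts1 was at 0.443 (0.377 to 0.521) in OVX_E2 over OVX and at 0.434 (0.361 to 0.521) in OVX_E2_PBDE over OVX_E2, but at 0.915 (0.756 to 1.10) in OVX_E2_P4_PBDE over OVX_E2_P4. Basal markers summed to 6718 CPM in OVX and 2111 to 3631 in the other libraries, and L-Alv markers in basal-like cells to 1400 and 1619 in the PBDE libraries and 224 to 365 in the others. Their part in the Adamts1 levels was not tested. Adamts18 was at 16.7 (2.82 to 675) in OVX_E2 over OVX, with 40 UMIs over both, and at 1.11 (0.742 to 1.70) in OVX_E2_P4 over OVX_E2.

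In endothelial-like cells 2 of 8 members were past 2-fold downward in OVX_E2 over OVX (1.97% of all genes) and 0 upward (1.65%), 0 of 7 for P4 (0.625% up and 2.50% down) and 0 of 5 for PBDEs under E2 with P4 (2.04% and 0.843%). Mmp2 was at 0.298 (0.164 to 0.527), from 37 UMIs to 20, and Timp2 at 0.427 (0.286 to 0.632), from 62 to 48, both genes being highest in fibroblast-like cells. The median share of fibroblast markers in endothelial-like cells was 7.08% in OVX and 6.10% in OVX_E2. The part of this share in the 2 ratios was not tested. With PBDEs under E2, 1 of 9 was past 2-fold upward (1.41%) and 0 downward (1.44%), Adam15, which went from 70.8 to 172 CPM (2.44, 1.63 to 3.72). With PBDEs, Adamts4 was at 1.90 (1.60 to 2.27) under E2 and 1.97 (1.39 to 2.85) under E2 with P4, both below 2-fold, and Adamts1 was at 1.41 (1.25 to 1.59) and 1.40 (1.11 to 1.78). In myeloid-like cells Mmp12 was past 2-fold downward with PBDEs in both pairs (1.19% and 4.69% of all genes), at 0.340 (0.247 to 0.467) and 0.0767 (0.0205 to 0.203), the second from 4 UMIs. Within the C1qa subcluster Mmp12 went from 1149 in OVX_E2 to 600 in OVX_E2_PBDE.

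**Figure D4:**
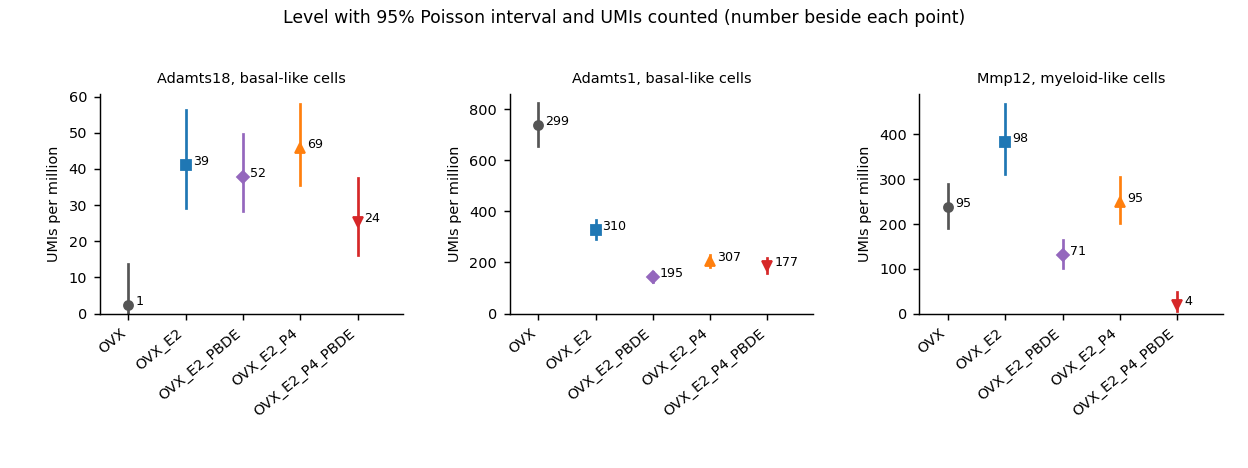
Levels in CPM, per library, of Adamts18 and Adamts1 in basal-like cells and of Mmp12 in myeloid-like cells, with exact 95% intervals for counting error and the UMI count of each library. Adamts18 is lowest in OVX, Adamts1 highest in OVX, and Mmp12 lowest in OVX_E2_P4_PBDE at 4 UMIs.

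The fibroblast clusters fell into those with a high level of Pi16, a marker of adventitial-type fibroblasts (at least 2000 CPM), and those below. This split was chosen after the data were seen, so it is a description. Pi16-high cells were 51.2% of fibroblast-like cells in OVX (49.2 to 53.1), 64.4% in OVX_E2, 53.2% in OVX_E2_P4, 69.6% in OVX_E2_PBDE and 74.3% in OVX_E2_P4_PBDE (71.3 to 77.1). Of 33 members with at least 200 UMIs, 8 were at least 2-fold higher in Pi16-low cells in each of the 5 libraries (3.19% of 9125 genes) and 0 in Pi16-high cells (2.50%). The 8 were Adam12, Adamts4, Mmp11, Adamts12, Mmp3, Timp1, Adam19 and Adamts14.

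Adam12, a marker of activated stroma, had 2.47 CPM in Pi16-high cells of OVX and 1.49 to 3.75 in the other libraries, against 24.2 in Pi16-low cells of OVX and 67.9 to 87.7 in the others. Its ratio was 9.81 to 45.5. Mmp3 had 186 to 359 in Pi16-high and 834 to 1272 in Pi16-low cells, a ratio of 3.54 to 4.52. Mmp11 had 12.3 to 19.9 and 49.3 to 137, Timp1 had 30.8 to 56.5 and 86.8 to 215, and Adamts4 had 9.39 to 13.1 and 91.7 to 144. None of these 5 overlapped between the groups. They were taken from the members already selected for a 2-fold difference in each library, so this is not independent of that selection. Overlap was not counted over all genes.

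Timp2, Timp3, Mmp23 and Adamtsl4 leaned the other way without reaching 2-fold in each library. Timp2 was 1.83 to 2.57 times higher in Pi16-high cells (2437 to 2914 against 955 to 1500 CPM), Timp3 1.94 to 3.87 times, Mmp23 1.83 to 2.43 times and Adamtsl4 1.92 to 5.35 times. Adamts16, which had 186 UMIs in fibroblast-like cells and so too few for the count, had 56, 23, 12, 65 and 19 UMIs in Pi16-high cells of OVX, OVX_E2, OVX_E2_P4, OVX_E2_PBDE and OVX_E2_P4_PBDE and 3, 1, 2, 5 and 0 in Pi16-low cells. Adamts5, Adamtsl1 and Adamts1 were near even, with Pi16-low over Pi16-high at 0.93 to 1.20, 0.79 to 1.06 and 0.86 to 1.29. Thus Timp1 lay with Mmp3 and Mmp11 in the Pi16-low cells, and Timp2 and Timp3 were higher in the Pi16-high cells.

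**Figure D5:**
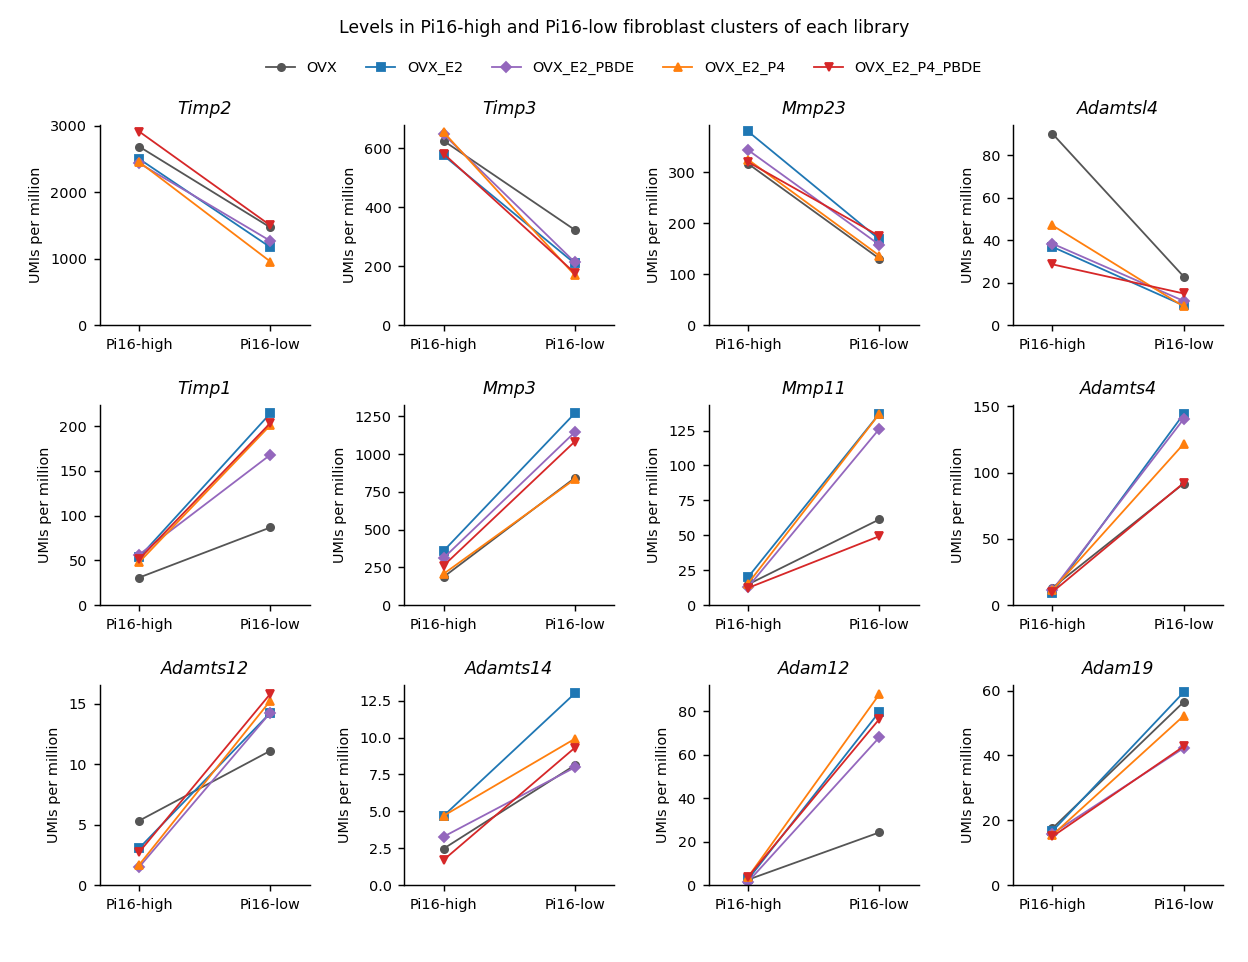
Levels of 12 members in CPM in Pi16-high and Pi16-low fibroblast clusters, with a line for each library. The lines of Timp2, Timp3, Mmp23 and Adamtsl4 go down from Pi16-high to Pi16-low, and those of Timp1, Mmp3, Mmp11, Adamts4, Adamts12, Adamts14, Adam12 and Adam19 go up.

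The ratios with E2 were also taken within each fibroblast group, since the shares of both groups differed between libraries. The Pi16-low group was itself a mix that differed between libraries. A cluster with Crabp1 at 467 CPM made up 107 of 1253 Pi16-low cells in OVX, and one at 229 CPM made up 174 of 333 in OVX_E2. The part of this mix in the Pi16-low ratios was not tested. In Pi16-low cells 5 of 32 members were past 2-fold upward in OVX_E2 over OVX (3.88% of all genes) and 2 downward (3.07%). Adamts9 was at 5.62 (3.15 to 10.4), Adam12 at 3.29 (2.64 to 4.11), Mmp19 at 2.53 (2.06 to 3.10), Timp1 at 2.47 (2.18 to 2.80) and Mmp11 at 2.23 (1.92 to 2.60), with Adamtsl4 at 0.403 (0.245 to 0.635) and Adamtsl3 at 0.279 (0.152 to 0.476). In Pi16-high cells 1 of 31 was up (1.52%), Adamts19 at 2.46, and 1 down (1.32%), Adamtsl4 at 0.408 (0.341 to 0.486), while Timp1 was at 1.74 (1.44 to 2.10) and Mmp11 at 1.35 (1.01 to 1.80). Adamts19 also went up in Pi16-low cells, from 1.99 CPM in OVX to 9.22 in OVX_E2, with under 50 UMIs and so outside the count. The ratio of Adamtsl4 was thus about the same in both groups. The intervals of Timp1 and of Mmp11 did not overlap between the groups, and these differences were not tested over animals.

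With PBDEs under E2 and P4, Mmp11 was at 0.360 (0.265 to 0.482) in Pi16-low cells, where 0 of 28 members were up (0.671%) and 2 down (1.80%, the other being Adamts10 at 0.488), and at 0.795 (0.499 to 1.26) in Pi16-high cells, where 0 members were past 2-fold (0.737% up and 0.779% down). In OVX_E2_P4 a cluster with Crabp1 at 797 CPM made up 123 of 443 Pi16-low cells. In OVX_E2_P4_PBDE all 228 Pi16-low cells lay in the same cluster, at 150 CPM, and the part of this in the ratios was not tested. P4 went with 1 of 30 members up in Pi16-low cells (1.03%), Adamts15 at 2.01 (1.28 to 3.23), and 0 down (0.545%). In Pi16-high cells it went with 0 of 29 up (0.738%) and 1 down (1.35%), Mmp27 at 0.488 (0.335 to 0.698). PBDEs under E2 alone went with 0 members past 2-fold in Pi16-high (0.385% and 1.17%) and in Pi16-low cells (0.499% and 0.767%).

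Genes that act beside these families were tested in the same fit. Of 20 other matrix proteases 17 were tested, and 12 were higher in fibroblast-like cells (Bmp1, Ctsb, Ctsk, Ctsl, Dpp4, Fap, Htra1, Htra3, Pcsk5, Pcsk6, Plat and Plau) and 2 lower, Ctss and St14, where 19.1% of all genes were higher and 9.76% lower. Ctsk, the collagen-cutting cathepsin, had 422 to 545 CPM there, and Ctss, the cathepsin of antigen-presenting cells, 2.40 to 3.49 against 440 to 1572 in myeloid-like cells. Myeloid-like cells had 5 higher (Ctsb, Ctss, Dpp4, Furin and Plau) and 7 lower (13.5% and 11.0% of all genes), and L-Hor-like cells had 2 higher, the epithelial serine proteases Prss8 and St14, and 6 lower (14.8% and 12.0%).

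Among receptors, inhibitors and enhancers, those called higher in fibroblast-like cells included Pcolce and Pcolce2, which speed the work of Bmp1, the membrane Mmp inhibitor Reck, Serpine2 and Serpinf1, and the epithelial inhibitors Spint1 and Spint2 were called lower. Of 12 tested sheddase substrates and partners, L-Hor-like cells had 4 higher (Areg, Epgn, Rhbdf2 and Tspan15) and 1 lower (14.8% and 12.0% of all genes), L-Alv-like cells 7 and 1 (12.4% and 8.69%), and basal-like cells 5 and 0 (13.3% and 6.0%). Tspan15 guides Adam10 and Rhbdf2 guides Adam17, and both were called higher in L-Hor-like and in L-Alv-like cells. The 1 gene called lower in each of these was Tspan5, also on this list. Rhbdf1 was called higher in L-Alv-like but not in L-Hor-like cells. Adam10 itself had a log2 difference of -0.669 in L-Alv-like cells, less than 2-fold. Rhbdf2 was also called in myeloid-like cells (log2 difference 2.84, SE 0.623, adjusted p = 0.000394) and Tspan15 in endothelial-like cells. Of 5 tested substrates of Adamts enzymes and partners of Adamtsl proteins, fibroblast-like cells had 4 higher (Fbn1, Fbn2, Ltbp1 and Vcan) and 0 lower (19.1% and 9.76% of all genes).

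Some of these genes were past 2-fold between libraries, among them ligands of ErbB receptors. For OVX_E2 over OVX in L-Hor-like cells, 1.71% of all genes were past 2-fold upward and 6.60% downward. Areg was the only gene of these lists upward. Ctsk, Htra3, Plat, Pcolce, Pcolce2, Serpinf1, Fbn1, Ltbp1, Thbs1 and Epgn were downward, most of them not ErbB ligands. In L-Hor-like cells Areg, which encodes amphiregulin, went from 380 CPM in OVX to 1500 in OVX_E2 (3.94, 3.51 to 4.45) and stood at 2330 in OVX_E2_PBDE, 1462 in OVX_E2_P4 and 1760 in OVX_E2_P4_PBDE. Epgn, epigen, went from 80.2 in OVX to 25.0 in OVX_E2 (0.31, 0.23 to 0.43), 13.5 in OVX_E2_PBDE, 55.6 in OVX_E2_P4 and 15.3 in OVX_E2_P4_PBDE, so OVX and OVX_E2_P4 were highest. In fibroblast-like cells Pcsk6, a proprotein convertase, went from 123 in OVX to 55.5 in OVX_E2 (0.45, 0.40 to 0.51). Fbn2, which encodes fibrillin 2, stood there at 1.60 in OVX, 7.07 in OVX_E2, 18.0 in OVX_E2_P4, 8.10 in OVX_E2_PBDE and 4.99 in OVX_E2_P4_PBDE.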

How the data were processed

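Single-cell RNA libraries, 1 per group, were made with the 10x Chromium 3′ kit. Per the labels and methods, the authors aligned reads to mm10 and counted UMIs with Cell Ranger 2.0.0; the deposited matrices hold raw UMI counts of the barcodes called as cells, without normalization. Library totals were 20293934 (OVX), 29590862 (OVX_E2), 42012988 (OVX_E2_PBDE), 32648416 (OVX_E2_P4) and 19982067 (OVX_E2_P4_PBDE) UMIs. The number of columns of per-sample values not used was 0.

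Barcodes with at least 500 genes, at least 1000 UMIs and at most 10% mitochondrial UMIs were kept. Each library was clustered on its own in Seurat 5.3.0 (R 4.3.3) with 10 principal components, 20 neighbours and a resolution of 0.3 (OVX) or 0.5 (the others). Members and the pathway genes were removed from the 2000 variable genes before clustering, which left 1948 to 1973. Clusters were named from marker lists, and the limits of the naming scores were set after the clusters had been seen. Hematopoietic-like and endothelial-like clusters were pooled and clustered again. Cell types are therefore rebuilt names and not the authors' own. Doublets were kept in the main analysis. In an alternative, the 20% of barcodes with the highest Scrublet scores (scanpy 1.11.5) were left out.

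Summed counts of library and compartment with at least 20 cells were tested with edgeR 4.0.16 (TMM, quasi-likelihood, library as a block) over all genes that passed its filter on low counts, with Benjamini-Hochberg adjustment. Repeated compartments of 5 libraries are the replicates, and mice per library are unknown. The p-values thus set a compartment difference against how that difference varies between these libraries, which also differ in treatment. Between treatments no test was made. Ratios have exact conditional binomial and levels exact Poisson 95% intervals (scipy 1.17.1, Python 3.11.15), a count of 0 is given with the level of 3 counts, and all intervals cover counting error only. Scripts were tested on simulated data.

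The members, marker lists and pathway lists were chosen with earlier results of these data known. Members named in full were the 4 Timp genes, the 6 members of each other family with the most UMIs, the 3 largest differences among those called higher in each compartment, and the members past 2-fold between libraries. Other members named, the values within myeloid subclusters and the Pi16 groups were chosen after their values were seen. Alternatives were DESeq2 1.42.0, no TMM factors, no filter on low counts, no minimum fold, no replicate block, each library left out, other fold and UMI limits, 5% mitochondrial UMIs, a resolution of 1.0, cells thinned to 3000 UMIs, and all barcodes in place of compartments. Positions are from GENCODE M21 and promoter sequences from RefSeq (GRCm38.p6). In the set of promoter windows used, without chromosome 18 for members, 37 of the 60 members had a window. Adam4 overlaps Cox16 on the same strand, so its counts are uncertain. The result of 1 pathway gene is not reported here.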

Additional observations from a re-analysis of the deposited data

How the results depend on the processing

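Of 63 calls of a member as higher in a compartment, 50 held under every alternative that could be fitted, and of 41 calls as lower, 5 did. Counts of members called higher that moved by more than 1.5 times were few. L-Alv-like cells had 2 in place of 1 without a minimum fold (27.2% of all genes) or without the highest Scrublet scores (14.7%). They also had 2 with 5% mitochondrial UMIs (12.7%) or at a resolution of 1.0 (12.8%). They had 3 without a filter on low counts (69 members tested, 9.50% of all genes), and 1 to 2 when a library was left out (12.0% to 12.8%). Endothelial-like cells had 7 in place of 12 with 5% mitochondrial UMIs (14.9% of all genes), where OVX and OVX_E2_P4 had no such cluster. Without the highest Scrublet scores myeloid-like cells had 4 in place of 9 (7.66% of all genes), and lymphoid-like cells entered from OVX alone, with 21 cells. Without a filter lymphoid-like cells had 2 (5.04%). Leaving out a library gave 29 to 32 in fibroblast-like (18.7% to 21.5% of all genes) and 9 to 12 in endothelial-like cells (16.3% to 18.0%). It gave 8 to 11 in myeloid-like (12.2% to 13.5%), 5 to 7 in basal-like (12.8% to 13.3%) and 4 to 5 in L-Hor-like cells (14.2% to 16.1%). Counts of members called lower moved more. Without OVX they were 5 in place of 8 in L-Alv-like (6.65% of all genes) and 3 in place of 6 in endothelial-like cells (6.79%). They were then 1 in place of 3 in fibroblast-like (7.79%) and 1 in place of 2 in basal-like cells (4.79%). Without OVX_E2_P4 they were 3 in L-Alv-like (6.15% of all genes) and 5 in place of 9 in L-Hor-like cells (9.6%). They were then 1 in fibroblast-like (7.08%) and 0 in basal-like cells (4.62%). Without OVX_E2 they were 2 in endothelial-like (8.19%) and 1 in basal-like cells (5.56%). Without OVX_E2_PBDE they were 0 in basal-like cells (5.52%). Without the highest Scrublet scores they were 0 in place of 6 in myeloid-like (2.08%), 3 in endothelial-like (4.48%), 1 in fibroblast-like (3.99%) and 1 in basal-like cells (4.29%). Without the replicate block, which here is the library, the counts called higher were 30, 11, 9, 6, 4, 1 and 1 for fibroblast-like, endothelial-like, myeloid-like, basal-like, L-Hor-like, L-Alv-like and lymphoid-like cells. The shares of all genes were 19.0%, 17.4%, 13.5%, 13.0%, 14.9%, 12.6% and 8.34% in the same order. No paired analysis was possible because each treatment group held 1 library.

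Members past 2-fold in fibroblast-like cells were 6 for E2, and 10 with a minimum of 20 UMIs, 12 at 1.5-fold, 17 over all barcodes, 3 with cells thinned to 3000 UMIs and 2 in Pi16-high cells alone, an alternative chosen after seeing the data. For P4 the 0 became 1 with 20 UMIs, 2 at 1.5-fold, 1 over all barcodes and 1 in either Pi16 group. For PBDEs under E2 the 0 became 1 with 20 UMIs, 3 at 1.5-fold, 1 over all barcodes and 1 with thinned cells. For PBDEs under E2 with P4 the 2 became 1 with TMM factors, 8 at 1.5-fold, 4 over all barcodes, 4 with 5% mitochondrial UMIs and 0 in Pi16-high cells. In L-Hor-like cells the 7 for E2 became 17 over all barcodes and 4 with thinned cells, the 0 for P4 became 1 over all barcodes, the 0 for PBDEs under E2 became 1 with 20 UMIs and 1 over all barcodes, and the 0 under E2 with P4 became 4 over all barcodes and 2 without the highest Scrublet scores. For E2 over all barcodes 1080 genes were up and 1350 down of 12966, against 260 and 163 of 10454 in fibroblast-like and 126 and 488 of 7390 in L-Hor-like cells. For P4 they were 116 and 178 of 13238, for PBDEs under E2 95 and 261 of 13378, and under E2 with P4 153 and 211 of 12919. Shares over all genes under the other settings are not given here, except for the Pi16 groups above. Over all barcodes the shares of compartments enter the ratio, which by construction differs from a level within cells. For the rest the cause was not tested.

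Timp1 in fibroblast-like cells with E2, at 2.01, stayed past 2-fold in 2 of 8 settings. Adamts9 and Mmp19 did so in 5 of 8, Adam12 in 6, Adamts19 in 7 and Adamtsl4 in 8. With PBDEs under E2 and P4, Mmp11 stayed past 2-fold in 7 of 8 and Adamts19 in 4 of 8. Directions reversed on the log2 scale for Adam8 in L-Alv-like (0.086) and lymphoid-like cells (-5.49) without the highest Scrublet scores, and in L-Hor-like and lymphoid-like cells without OVX_E2_P4, with ranges over the libraries left out of -1.90 to 0.14 and -5.17 to 4.26. They also reversed for Mmp23 in endothelial-like cells without OVX (range -1.20 to 0.10), and for E2 in fibroblast-like cells for Adamts9 in Pi16-high cells (-0.0034) and, over all barcodes, for Adam12 (-0.071) and Mmp19 (-0.51). Depth limits the small compartments, where 12 to 148 cells per library leave most members under 50 UMIs.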

Other observations

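In the barcodes that held both luminal programs, which entered no comparison, Adam10 pooled over libraries stood at 88.1 CPM, Timp2 at 145, Timp3 at 70.6, Mmp2 at 41.6, Mmp14 at 29.1, Timp1 at 24.2 and Adam15 at 23.1. Mmp15 stood at 41.8 in OVX, 22.5 in OVX_E2, 21.2 in OVX_E2_P4, 23.5 in OVX_E2_PBDE and 23.4 in OVX_E2_P4_PBDE, so OVX was highest there as it was in L-Hor-like cells. These barcodes had a median of 15391.5 to 25543 UMIs per library, against 5533 to 10460 in L-Hor-like cells. The paper considered such a cluster in OVX_E2 to be doublets of L-Hor and L-Alv cells. The Mmp15 levels are therefore not a second observation apart from L-Hor-like cells.

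Of the 24 members with fewer than 20 UMIs, 14 had no UMI in any library. The highest of the others were Mmp10 with 12 UMIs, Adam32 with 7, Adam24 with 6 and Adam25 with 4. Several of the Adam genes in this set are known for their use in the testis.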
